A study of Mus musculus with 6 samples.

Results

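The nuclear genes for the subunits of the 5 oxidative phosphorylation complexes were described in mouse ileum, the part of the small intestine that opens into the colon. Members were chosen by gene symbol alone: Nduf followed by a, b, c, s or v and a digit, Sdha to Sdhd, symbols starting with Uqcr or Atp5, and Cox followed by a digit of 4 to 8. This took 84 genes, of which 82 were listed for both genotypes, out of 21950 gene symbols listed for both. Of those 82 members, 77 had a mean of at least 5 units (defined below) and were compared, among 8888 genes of that level. Complex I gave 36 of its 37 members to the comparison, Complex II 4 of 4, Complex III 8 of 8, Complex IV 13 of 18 and Complex V 16 of 17. The symbol rule leaves out subunits with other names, such as cytochrome c1, as well as the subunits encoded by mitochondrial DNA, and it takes in a few genes that are not structural subunits, which are named where they occur.

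Ileum came from 3 TLR4ΔIEC mice, in which intestinal epithelial cells lack Toll-like receptor 4 (the receptor for bacterial lipopolysaccharide), and from 3 wild type mice. All were C57BL/6 mice aged 24 weeks, and no other allele or treatment is given for either group. The driver of the deletion is not given in the labels. RNA was depleted of ribosomal RNA and sequenced as whole-transcriptome libraries, 1 per mouse, but the values come as 1 column of average read coverage per genotype, pooled over its 3 mice. There is therefore no spread between mice, no test and no p-value, and every difference below is one between 2 pooled columns. The libraries of the genotypes were also sequenced as separate pools, so genotype and sequencing pool cannot be told apart.

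Oxidative phosphorylation takes place in the inner mitochondrial membrane. Complexes I and II pass electrons from NADH and succinate to ubiquinone, Complex III passes them on to cytochrome c, and Complex IV, cytochrome c oxidase, hands them to oxygen. Complexes I, III and IV pump protons, and Complex V, the ATP synthase, uses the returning protons to make ATP. Absorptive cells of the small intestine rely on this pathway for nutrient transport. The complexes have a catalytic core inherited from bacteria, and all but Complex II also have supernumerary subunits that stabilise or regulate it.

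Coverage is deposited as an average per base, so levels are given on a scale per length. The length behind the averages is not stated, and the one recovered from them, which may be a divisor of the true one, was often shorter than the annotated transcript, such as 207 of 421 bases for Atp5e, 499 of 1521 for Uqcrq and 257 of 1231 for Sdhd. Levels of different genes, and shares within a gene pair, are therefore approximate, while a ratio between genotypes concerns 1 gene at a time. Both columns were scaled by the median of their ratios to a mean total of 1000000 units, and a log2 ratio is that of TLR4ΔIEC over wild type after 1 unit was added to each value. Summed coverage was 698473 in the TLR4ΔIEC column and 699800 in the wild type column, and median coverage was 1.70 reads per base in TLR4ΔIEC and 1.57 in wild type. Members were covered well above those medians: 73 of the 77 had a mean of at least 50 units. Where a length was recoverable, coverage times that length came to between 3769 and 1347630 bases of reads per member in the TLR4ΔIEC column. In the wild type column it came to between 6917 and 1038190. As the recovered length may be a divisor of the true one, these are lower bounds. The targeted gene itself was weakly covered, and Tlr4 had a coverage of 1.60 in the TLR4ΔIEC column and 1.98 in the wild type column (log2 ratio -0.27). That value spans the whole transcript in all cells of the ileum, including those that keep the gene, so it checks the labels only weakly.

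The promoters of the members with the highest and the lowest ratio, Cox5a and Ndufa5, are shown first, as the last 100 bases before the most upstream start of transcription in RefSeq (GRCm38.p6), read 5′ to 3′ on the strand of the gene. Cox5a lies on the plus strand (chr9:57521132-57521231) and Ndufa5 on the minus strand (chr6:24527691-24527790), and neither window holds either of the motifs described next. GENCODE, from which the gene coordinates are taken, starts Ndufa5 further upstream, so that this window lies inside its gene.
Cox5a: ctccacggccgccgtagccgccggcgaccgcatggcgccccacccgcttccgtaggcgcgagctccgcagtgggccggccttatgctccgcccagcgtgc
Ndufa5: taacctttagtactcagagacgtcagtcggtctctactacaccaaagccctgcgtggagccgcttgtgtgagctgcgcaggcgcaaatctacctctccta

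Promoters of respiratory chain genes are known for binding sites of nuclear respiratory factor 1 (NRF1) and of ETS factors such as GABP. Motifs were searched on both strands of the 300 bases around the start, 250 before and 50 after, in 69 members with a RefSeq promoter and in all 27025 genes with one. The NRF1 motif, a palindrome spelled by the capitals below, stood in 5 members (7.25%), against 1.07% of all genes. The ETS motif CCGGAAG stood in 16 members (23.2%), against 9.93% of all genes. The NRF1 motif is in capitals in 3 of its 5 members, which belong to Complex V and Complex I: Atp5k (minus strand, chr5:108434400-108434499), Atp5g2 (minus strand, chr15:102671048-102671147) and Ndufa11 (plus strand, chr17:56717662-56717761). GENCODE also starts Atp5k and Atp5g2 further upstream, so that their windows lie partly or wholly inside its genes.
Atp5k: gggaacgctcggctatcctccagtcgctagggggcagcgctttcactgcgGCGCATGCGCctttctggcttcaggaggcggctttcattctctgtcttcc
Atp5g2: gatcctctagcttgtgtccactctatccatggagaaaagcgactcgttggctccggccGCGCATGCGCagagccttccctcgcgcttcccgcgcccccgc
Ndufa11: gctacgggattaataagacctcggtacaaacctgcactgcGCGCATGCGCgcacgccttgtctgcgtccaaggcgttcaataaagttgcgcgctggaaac

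Members with either motif occurred on both sides of the comparison. The 5 members with the NRF1 motif had 3 log2 ratios above 0 and 2 below, between -0.28 (Atp5k) and 0.30 (Uqcrc1), with a median of 0.15. Most of those with the ETS motif were lower in TLR4ΔIEC, with 5 above 0 and 11 below (47.3% of all genes lay below). Their median was -0.15, between -0.78 (Ndufb7) and 0.35 (Sdhd). A match describes letters in the window and is no evidence that a factor binds there.

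Taken over all 77 members, the pathway held nearly the same share of the transcriptome in both genotypes, 2.00% of all units in TLR4ΔIEC ileum and 2.06% in wild type ileum. The median log2 ratio was -0.06, against 0.03 over all 8888 genes, with SDs across genes of 0.40 and 0.48. The members' median turned slightly above 0 with 3 other scalings (0.01, 0.05 and 0.09) and once a trend on GC content and transcript length was taken out (0.05). Above 0 lay 36 members, where 52.7% of all genes did, and below 0 lay 41 members, where 47.3% of all genes did. Among genes of at least 50 units, the median was -0.06 for the 73 members and -0.08 for all 1716 genes. A log2 ratio of 0.32 or more, the smallest threshold used, was reached by 11 members (20.8% of all genes), and one of -0.32 or less by 21 (21.2% of all genes). At least 1.5-fold higher was 1 member, Cox5a (6.57% of all genes), and at least 1.5-fold lower were 11 (10.2% of all genes). A 2-fold difference was passed by 0 members upwards (1.29% of all genes) and by 1 downwards, Ndufa5 (2.79% of all genes).

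The medians of the complexes lay between -0.13 and 0.22, and Complexes I, III, IV and V each had members on both sides of 0. Complex II had a median log2 ratio of 0.22 with 4 of 4 members above 0 (52.7% of all genes), and Complex III one of 0.04 with 4 of 8. Complex V was at 0.01 with 8 of 16 above 0, Complex I at -0.13 with 15 of 36 and Complex IV at -0.13 with 5 of 13. The Complex IV median turned above 0 after that trend was taken out (0.05, or 0.03 with recovered lengths). That of Complex III turned below 0 without members that have near-identical copies (-0.12), and that of Complex V after removal of the trend with recovered lengths (-0.0045). Complexes I and II kept their sign under all 16 and 15 alternatives run on them.

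**Figure D1:**
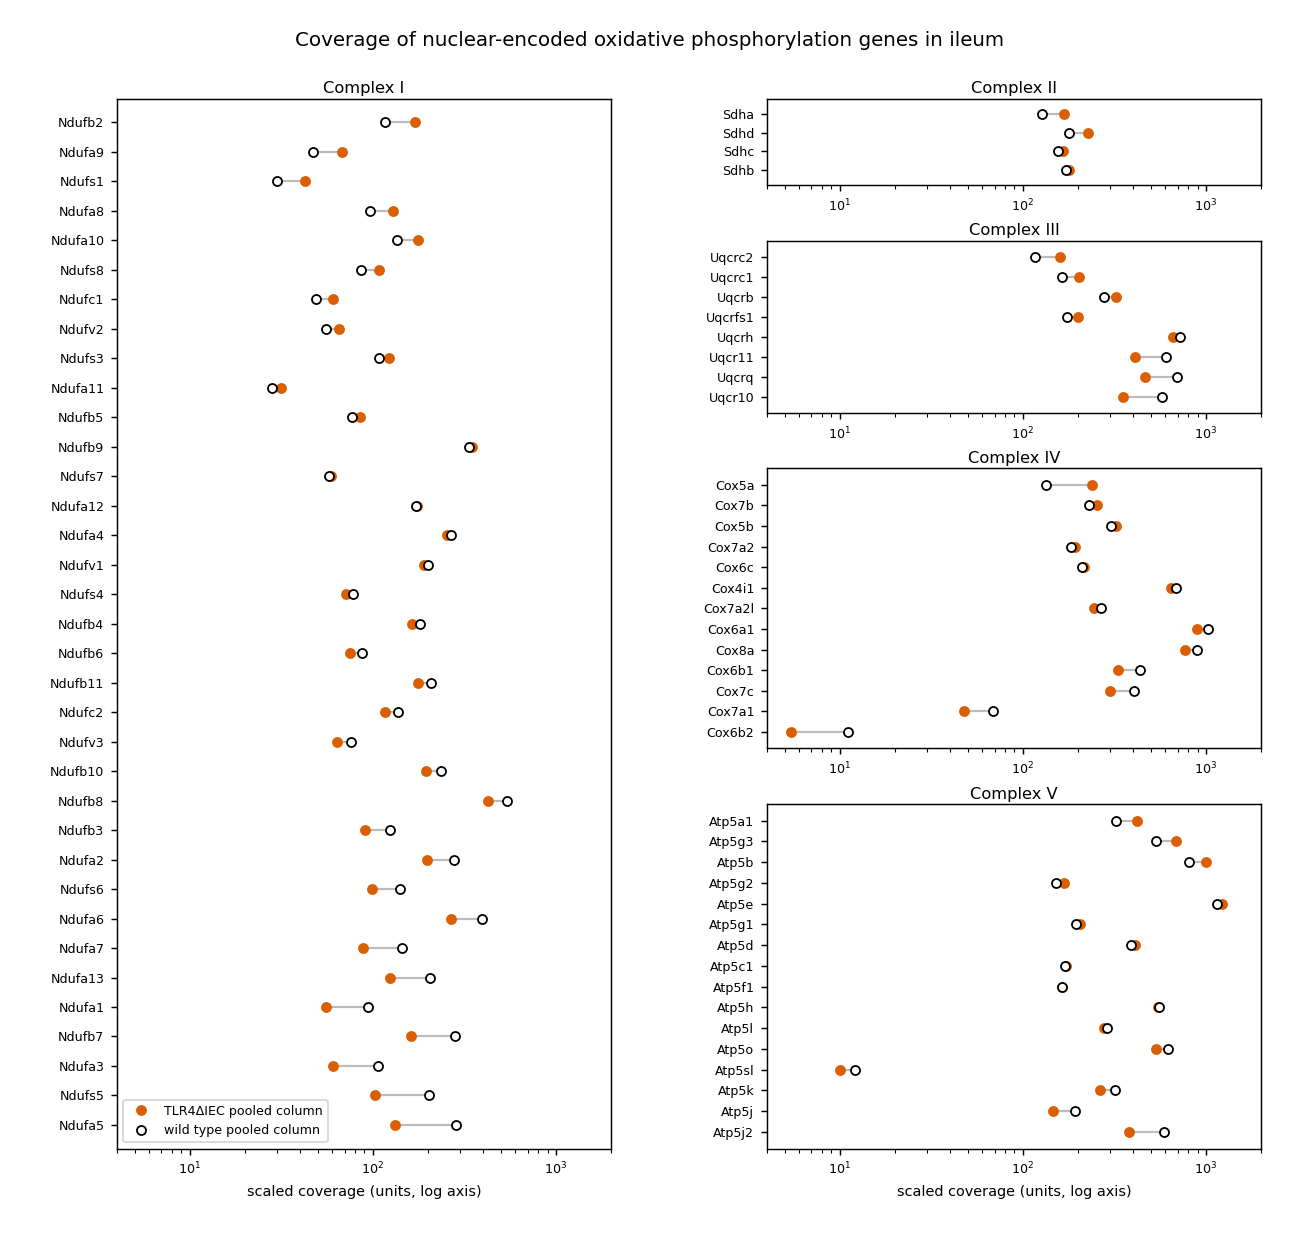
Scaled coverage (units, log axis) of 76 of the 77 members in the TLR4ΔIEC pooled column (filled) and in the wild type pooled column (open), by complex and in order of the ratio. In Complex III the small subunits Uqcr10, Uqcrq and Uqcr11 lie to the left of their wild type values while Uqcrc1 and Uqcrc2 lie to the right, and in Complex II the TLR4ΔIEC value is the higher one for all 4 genes.

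Levels spanned a wide range in both columns and kept much the same order, with a Pearson r of 0.95 and a Spearman rho of 0.92 between the columns' log2 units over the 77 members (0.96 and 0.93 over all genes, all of which share the same libraries). Among members, the highest level in either column belonged to Atp5e, the epsilon subunit of the ATP synthase, at 1229.8 units in TLR4ΔIEC and 1148 units in wild type. Among the members compared, Cox6b2, a testis form of a Complex IV subunit, had the lowest, at 5.42 units in TLR4ΔIEC and 11.1 units in wild type. Within Complex II the 4 levels were close to each other: the highest was 1.37 times the lowest in TLR4ΔIEC and 1.39 times in wild type. By their medians, Complex I was at 119.7 units in TLR4ΔIEC and 137 in wild type, and Complex III at 338 units in TLR4ΔIEC and 426 in wild type.

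The core of Complex I was mostly higher in the TLR4ΔIEC column. Of 7 core subunits 6 lay above 0 (52.7% of all genes), with a median of 0.24 that stayed between 0.22 and 0.37 in all 13 alternatives run on it. In the arm that oxidises NADH, Ndufs1, which carries a chain of iron-sulphur clusters (chromosome 1, 63143596 to 63176833, minus strand), had 42.5 units in TLR4ΔIEC and 30.1 in wild type, a log2 ratio of 0.49. Ndufv2, an iron-sulphur protein of the same arm, had 65.4 units in TLR4ΔIEC and 55.3 in wild type (0.24). Ndufv1, which binds NADH and the flavin cofactor, went the other way by a small amount, with 189.6 units in TLR4ΔIEC and 199 in wild type (-0.07), and its ratio turned above 0 with 2 other scalings and with either trend removed.

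In the arm that reduces ubiquinone, all 4 core subunits lay above 0 (52.7% of all genes). Ndufs8, an iron-sulphur protein, had 108 units in TLR4ΔIEC and 86.1 in wild type (0.3196, just under the threshold written as 0.32). Ndufs3, a subunit between the arms, was at 123 units in TLR4ΔIEC and 108 in wild type (0.19). Ndufs7, which carries the last iron-sulphur cluster before ubiquinone, barely differed, with 59.1 units in TLR4ΔIEC and 57.6 in wild type (0.04). For Ndufs7 and Ndufs8, the lengths behind the averages of the genotypes could not be shown to be the same.

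The accessory subunits of Complex I, which surround that core, were mostly lower in TLR4ΔIEC. Below 0 lay 19 of 28 (47.3% of all genes), with a median log2 ratio of -0.25 (between -0.26 and -0.13 in the 13 alternatives). At or under -0.32 were 12 (21.2% of all genes), while 4 were at or over 0.32 (20.8% of all genes). Ndufa5, a subunit of the matrix arm (chromosome 6, 24518666 to 24528013, minus strand), had 133 units in TLR4ΔIEC and 286 in wild type, a log2 ratio of -1.10 or 2.14-fold lower, which placed it at the 2.18th percentile of all genes. The lengths behind its 2 averages could not be shown to be the same. Ndufs5, on the face towards the intermembrane space (chromosome 4, 123712710 to 123718202, minus strand), followed with 103 units in TLR4ΔIEC and 203 in wild type (-0.97). A pseudogene of Ndufs5, BC002163, is 99.4% identical over 60.8% of its transcript.

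Further accessory subunits past 1.5-fold lower belonged to both the membrane arm and the matrix arm. Ndufa3 of the membrane arm had 60.9 units in TLR4ΔIEC and 107 in wild type (-0.80). Ndufb7, on the intermembrane side, had 163 units in TLR4ΔIEC and 279.9 in wild type (-0.78). A pseudogene of Ndufb7, Gm13171, is 91.1% identical over 61.2% of its transcript. Ndufa1, a membrane subunit encoded on the X chromosome, was at 55.8 units in TLR4ΔIEC and 93.8 in wild type (-0.74). Ndufa13, also known as GRIM-19 and as a partner of STAT3, was at 124 units in TLR4ΔIEC and 206 in wild type (-0.73), and the reads of its exons may include some of Tssk6 on the opposite strand, which overlaps 30.0% of them. Ndufa7, a matrix arm subunit, was at 88.0 units in TLR4ΔIEC and 144 in wild type (-0.71). These were 7 of the 11 members past 1.5-fold lower.

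A smaller set of accessory subunits was higher in TLR4ΔIEC. Ndufb2, of the far end of the membrane arm (chromosome 6, 39592574 to 39603382, plus strand), had 170.6 units in TLR4ΔIEC and 117 in wild type (0.54). A pseudogene of Ndufb2, Gm13186, is 92.1% identical over 69.5% of its transcript, and Gm42420 on the same strand overlaps 2.58% of its exons. Ndufa9, which binds NADPH where the arms meet (chromosome 6, 126821721 to 126849136, minus strand), had 67.7 units in TLR4ΔIEC and 47.3 in wild type (0.51). The lengths behind the 2 averages of Ndufa9 could not be shown to be the same. Ndufa8, on the intermembrane side, was at 129 units in TLR4ΔIEC and 96.7 in wild type (0.42), and Ndufa10, which resembles a nucleoside kinase, at 175 units in TLR4ΔIEC and 136 in wild type (0.37). Ndufb8, an accessory subunit often used as a marker of assembled Complex I and the most strongly covered member of the complex, had 428 units in TLR4ΔIEC and 539 in wild type (-0.33).

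Ndufa4 was long counted in Complex I and is now placed in Complex IV. It had 254 units in TLR4ΔIEC and 266 in wild type (-0.06, above 0 with 3 other scalings), and counting it in either complex moved the medians by less than 0.1. Its relative Ndufa4l2, which is induced by low oxygen, was under the limit of 5 units, at 0.64 units in TLR4ΔIEC and 0.51 in wild type, which made it 0.25% of the pair's units in TLR4ΔIEC and 0.19% in wild type.

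All subunits of Complex II, which links the tricarboxylic acid cycle to the chain, had ratios above 0. Sdha, the flavoprotein that oxidises succinate (chromosome 13, 74322254 to 74350280, minus strand), had 168 units in TLR4ΔIEC and 128 in wild type, a log2 ratio of 0.39. Sdhd, a membrane anchor (chromosome 9, 50596357 to 50603812, minus strand), had 227 units in TLR4ΔIEC and 178 in wild type (0.35). The iron-sulphur subunit Sdhb, at 178 units in TLR4ΔIEC and 173 in wild type (0.05), and the other anchor Sdhc, at 166 units in TLR4ΔIEC and 156 in wild type (0.09), differed less. The median of 0.22 ranged between 0.21 and 0.32 over 15 alternatives.

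Complex III split by role. Its core proteins Uqcrc1 and Uqcrc2, the large subunits that face the matrix and descend from a processing peptidase, were higher in TLR4ΔIEC. Uqcrc2 (chromosome 7, 120635176 to 120659524, plus strand) had 159.6 units in TLR4ΔIEC and 117 in wild type (0.45), and Uqcrc1 had 203 units in TLR4ΔIEC and 164 in wild type (0.30). Uqcrfs1, the Rieske iron-sulphur protein that takes electrons from ubiquinol, was at 200.04 units in TLR4ΔIEC and 174 in wild type (0.20).

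The small subunits of Complex III went the other way in 4 of 5 cases (47.3% of all genes lay below 0). Their median of -0.56 stayed between -0.56 and -0.24 in the alternatives. Uqcr10 (chromosome 11, 4701973 to 4704342, minus strand) had 354 units in TLR4ΔIEC and 574 in wild type (-0.69). Uqcrq, which sits beside cytochrome b, had 462 units in TLR4ΔIEC and 694 in wild type (-0.59), and Uqcr11 had 410.1 units in TLR4ΔIEC and 607 in wild type (-0.56). Uqcrh, the hinge protein that helps cytochrome c1 to meet cytochrome c, was the most strongly covered of the complex at 662 units in TLR4ΔIEC and 720 in wild type (-0.12). Uqcrb, which lies close to the ubiquinone site, was the exception at 322 units in TLR4ΔIEC and 277 in wild type (0.22), and it has 4 annotated pseudogene copies of over 90% identity, among which the authors' counting may have divided its reads.

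The core of Complex IV is encoded by mitochondrial DNA, so its members here are supernumerary subunits. Of 10 broadly expressed ones, 5 lay above 0 (52.7% of all genes) and 5 below. Their median of -0.03 turned above 0 under 5 alternatives. Cox5a, a matrix-side subunit (chromosome 9, 57521274 to 57532426, plus strand), had 237 units in TLR4ΔIEC and 133 in wild type, a log2 ratio of 0.83 or 1.78-fold higher. It lay at the 97.7th percentile of all genes and was the only member at least 1.5-fold higher. The length recovered from its averages was 173 bases against 645 bases annotated, a pseudogene, Gm11633, is 93.0% identical over 68.8% of the transcript, and a noncoding gene on the opposite strand overlaps 12.8% of its exons. Its ratio was between 0.81 and 0.93 in 13 alternatives.

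No other broadly expressed subunit of Complex IV came near that ratio. Cox7b had 253 units in TLR4ΔIEC and 231 in wild type (0.13), and Cox5b, the zinc-binding subunit beside Cox5a, had 323 units in TLR4ΔIEC and 305 in wild type (0.09). Cox4i1, the largest nuclear subunit, was at 646 units in TLR4ΔIEC and 685 in wild type (-0.08, above 0 with 1 other scaling and with either trend removed). On the lower side, Cox7c had 299.8 units in TLR4ΔIEC and 406 in wild type (-0.44), and Cox6b1, which joins the monomers on the intermembrane side, had 332 units in TLR4ΔIEC and 436 in wild type (-0.39). Cox6a1, the most strongly covered of the complex, was at 898 units in TLR4ΔIEC and 1021 in wild type (-0.18), and Cox8a at 766 units in TLR4ΔIEC and 898 in wild type (-0.23). The ratios of Cox6a1 and Cox8a turned above 0 with either trend removed. Cox6c (0.03) and Cox7a2 (0.07) hardly differed.

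Several Complex IV subunits have forms specific to a tissue. All 5 of those listed in both columns had the lower value in TLR4ΔIEC (47.3% of all genes lay below 0). Only 2 of the 5, Cox7a1 and Cox6b2, reached the limit of 5 units. The direction of the others rests on values under that limit. Cox7a1, the form of heart, skeletal muscle and brown fat (chromosome 7, 30184144 to 30186078, plus strand), had 48.0 units in TLR4ΔIEC and 68.3 in wild type (-0.50), which made it 19.9% of the units of Cox7a1 and Cox7a2 together in TLR4ΔIEC and 27.0% in wild type. Cox6b2, the testis form, gave 1.61% of the units of the Cox6b pair in TLR4ΔIEC and 2.49% in wild type. The log2 ratio of its level was -0.92. By its recovered length, this came from as few as 3769 bases of reads in TLR4ΔIEC and 7389 in wild type. Cox8b, another form of heart, muscle and brown fat, was under the limit of 5 units, with a coverage of 0.40 in TLR4ΔIEC and 2.74 in wild type.

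The remaining members under the limit were near 0 in both columns. Cox4i2, a form known from lung and from low oxygen, was at 0.28 units in TLR4ΔIEC and 0.93 in wild type, and Cox6a2, of heart and muscle, at 0.10 units in TLR4ΔIEC and 0.15 in wild type. Cox8c was listed for TLR4ΔIEC alone with a coverage of 0.070, and Cox7b2 for wild type alone with 0.034. Cox7a2l, a factor that joins Complexes III and IV and of which C57BL/6 mice carry a shortened form, is not a structural subunit; it was at 244 units in TLR4ΔIEC and 267 in wild type (-0.13).

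Markers of the tissues that use those forms were read from lists. All 8 adipocyte markers had log2 ratios below 0 and summed to 21.6 units in TLR4ΔIEC and 66.3 in wild type, and 4 of them reached the limit of 5 units. Of the 8, Ucp1, which defines brown fat, was near 0 (0.12 units in TLR4ΔIEC and 0.16 in wild type). Of 5 listed markers of skeletal or heart muscle 4 lay above 0, with sums of 21.7 units in TLR4ΔIEC and 22.6 in wild type. Only 2 of the 5 reached the limit, Ckm above 0 (0.47) and Acta1 below 0 (-0.27). All 7 smooth muscle markers lay above 0, with sums of 1045 units in TLR4ΔIEC and 890.1 in wild type. The part of fat or muscle RNA in the values of Cox7a1 and Cox8b was not tested.

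In Complex V the ratios lay above 0 for the head with the central stalk and for the c ring, and below 0 for the outer parts. Of the outer parts, the peripheral stalk changed side with quantile normalization. All 5 subunits of the head and central stalk lay above 0 (52.7% of all genes), with a median of 0.10 (between 0.10 and 0.33 in the alternatives). Atp5a1, the alpha subunit, had 419.9 units in TLR4ΔIEC and 321 in wild type (0.39), and Atp5b, the catalytic beta subunit (chromosome 10, 128083273 to 128090391, plus strand), had 1002 units in TLR4ΔIEC and 809 in wild type (0.31). The subunits of the stalk differed little: Atp5e was at 0.10, the delta subunit Atp5d at 0.07, with 411 units in TLR4ΔIEC and 391 in wild type, and the gamma subunit Atp5c1 at 0.02 (below 0 with the trend on recovered length removed), with 172 units in TLR4ΔIEC and 169.5 in wild type.

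The proton-carrying c ring is encoded by 3 genes whose mature proteins are identical. Atp5g3, the main source (chromosome 2, 73908447 to 73911326, minus strand), had 688 units in TLR4ΔIEC and 531 in wild type (0.37) and gave 64.8% of the units of all 3 in TLR4ΔIEC and 60.4% in wild type. Atp5g2, whose promoter is printed above, was at 168 units in TLR4ΔIEC and 151 in wild type (0.15), and Atp5g1 at 206 units in TLR4ΔIEC and 196 in wild type (0.07). Together they held 1062 units in TLR4ΔIEC and 879 in wild type. A pseudogene of Atp5g2, Gm10175, is 100% identical over 88.2% of its transcript.

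The peripheral stalk, which holds the head still, had no member of 4 above 0 (52.7% of all genes). Its median of -0.11 turned to 0.01 with quantile normalization. Atp5j, coupling factor 6, had 146 units in TLR4ΔIEC and 193 in wild type (-0.40), and Atp5o, which ties the stalk to the head, had 534 units in TLR4ΔIEC and 622 in wild type (-0.22). Atp5h and Atp5f1 were both at -0.01 and turned above 0 under 5 and 4 alternatives. Of the other membrane subunits 0 of 3 lay above 0 (52.7% of all genes), with a median of -0.28. Atp5j2, the f subunit (chromosome 5, 145183698 to 145192062, minus strand), had 378 units in TLR4ΔIEC and 588 in wild type (-0.63). Atp5k, the e subunit that helps dimers form, had 264 units in TLR4ΔIEC and 321 in wild type (-0.28). Atp5l, the g subunit, was at -0.06 (above 0 with 3 other scalings), and 13 near-identical copies are annotated for it. Atp5sl (-0.24) and Atp5s, under the limit at 2.35 units in TLR4ΔIEC and 2.00 in wild type, carry the name of the complex without being structural subunits.

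**Figure D2:**
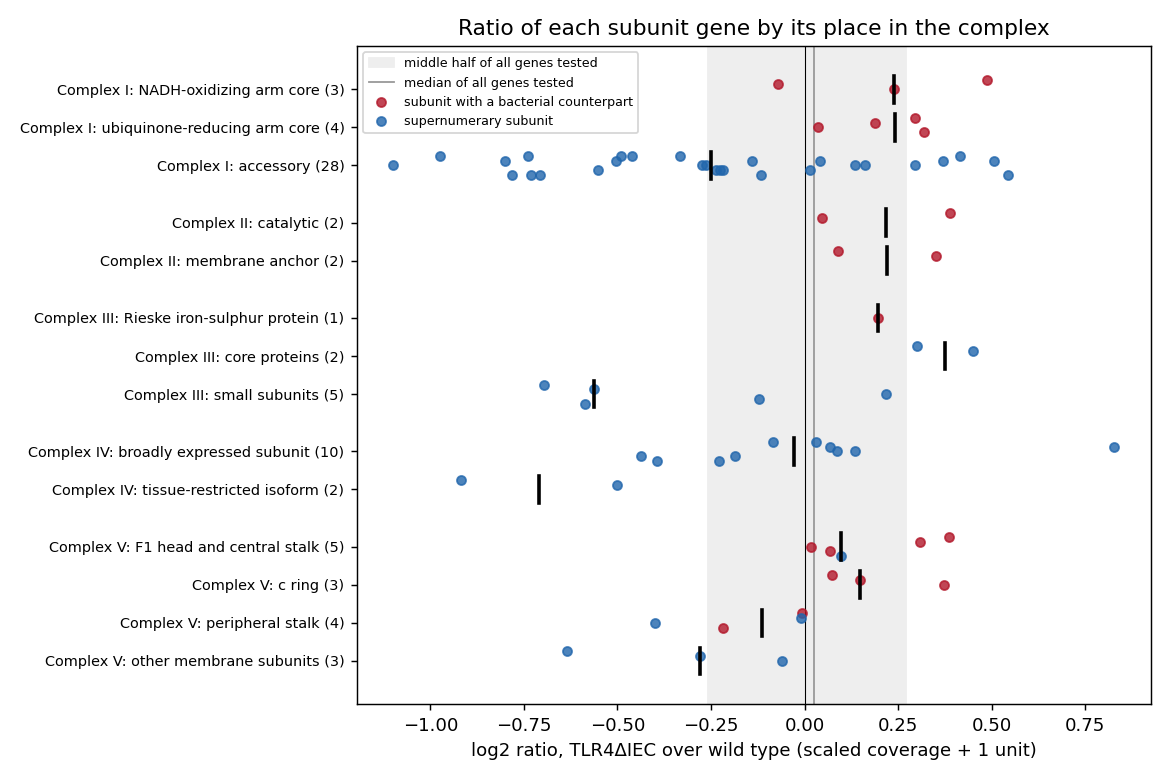
Log2 ratio (TLR4ΔIEC over wild type, scaled coverage plus 1 unit) of the members in each role shown. The number of genes is in parentheses and a black bar is at the median. Red points are subunits with a bacterial counterpart and blue points supernumerary ones. The grey band is the middle 50% of all genes tested. The 28 accessory subunits of Complex I centre on -0.25 and its 7 core subunits on 0.24.

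After the values had been seen, members were also grouped by origin: 21 subunits with a counterpart in bacterial enzymes, and 54 supernumerary subunits that passed the limit. The subunits with a bacterial counterpart had a median log2 ratio of 0.19, with 18 above 0 (52.7% of all genes), 5 at or over 0.32 (20.8% of all genes) and 0 at or under -0.32 (21.2% of all genes). The supernumerary subunits had a median of -0.22, with 18 of 54 above 0 (52.7% of all genes). Of the 54, 6 were at or over 0.32 (20.8% of all genes) and 21 at or under -0.32 (21.2% of all genes). Among them were all 11 of the members past 1.5-fold lower (10.2% of all genes). Both origins occur in several genes each only in Complexes I and V: Complex II has no supernumerary member, Complex IV no nuclear-encoded one with a bacterial counterpart, and Complex III 1 such member. In Complex I the medians were 0.24 for 7 members with a bacterial counterpart and -0.24 for 29 supernumerary ones, and in Complex V 0.07 for 9 and -0.17 for 6. Uqcrc1 and Uqcrc2 of Complex III count as supernumerary and had ratios above 0. Summed over genes, those with a bacterial counterpart held 5484 units in TLR4ΔIEC and 4858 in wild type, and the supernumerary ones 13801 units in TLR4ΔIEC and 15958 in wild type. Across 15 alternatives the 2 medians kept their signs, between 0.15 and 0.31 and between -0.24 and -0.10. Because the grouping followed the values, it is a description and has no test.

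**Figure D3:**
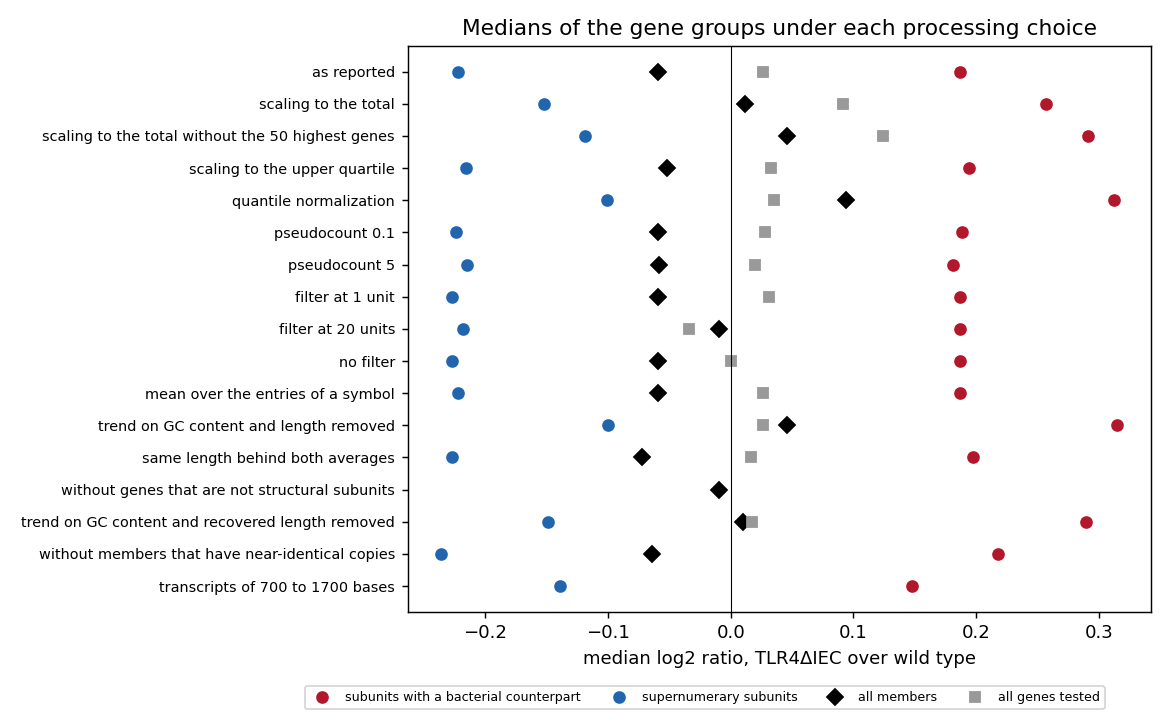
Median log2 ratio (TLR4ΔIEC over wild type) of subunits with a bacterial counterpart (red), supernumerary subunits (blue), all members (black) and all genes tested (grey) under each processing choice. The red medians stay right of 0 and the blue ones left of 0 under every choice shown, while the black median changes side.

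Supernumerary subunits are also encoded by shorter transcripts, and the ratio moved with length. Annotated transcripts had a median of 624 bases for supernumerary subunits and 1363 bases for those with a bacterial counterpart, against 758 bases for all members. Across the 77 members, log10 length and log2 ratio had a Pearson r of 0.41 and a Spearman rho of 0.43, and across 8851 genes they had 0.12 and 0.16. With the length recovered from the averages in place of the annotated one, r was 0.17 over 69 members. That length may be a divisor of the true one, and fewer members have it. The lower r therefore cannot show whether the relation with length is weaker. Genes share their libraries and are not replicates, so these are descriptions across genes.

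Values by length were as follows, in windows set after the values were seen. Among transcripts of 700 to 1700 bases, 12 of 15 subunits with a bacterial counterpart lay above 0 (median 0.15) and 7 of 19 supernumerary ones did (median -0.14). Of all genes of that length 45.8% lay above 0 (median -0.06). Above 1700 bases, 6 of 6 with a bacterial counterpart (median 0.35) and 2 of 2 supernumerary ones (median 0.41) lay above 0. Of all genes of that length 55.8% did (median 0.05). Under 700 bases all members were supernumerary, and 9 of 33 lay above 0 (median -0.24). Of all genes of that length 43.2% did (median -0.10). Once the trend of all genes on GC content and length was taken out, the medians were 0.31 with 19 of 21 above 0 and -0.10 with 22 of 54 above 0. For the core and the accessory subunits of Complex I, medians with that trend removed were 0.37 with 7 of 7 above 0 and -0.18 with 9 of 28.

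**Figure D4:**
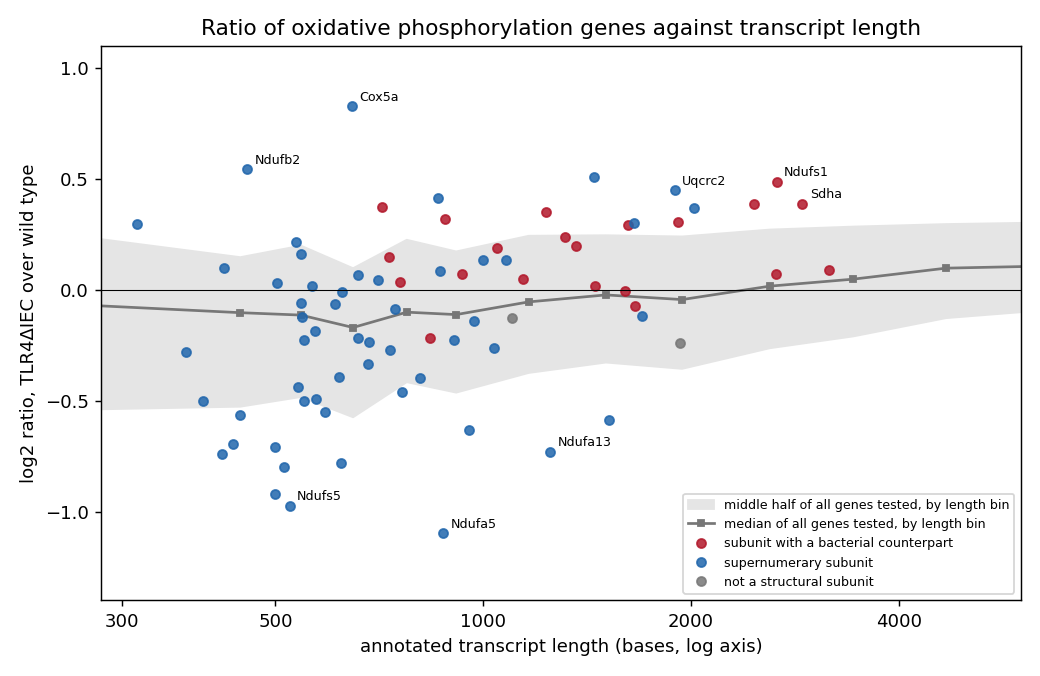
Log2 ratio (TLR4ΔIEC over wild type) against annotated transcript length (bases, log axis) for the 77 members, red with a bacterial counterpart, blue supernumerary and grey neither; the grey line and band are the median and the middle 50% of all genes tested by length. Most blue points lie left of 1000 bases, and the lowest ones, Ndufa5 and Ndufs5, lie far under the band of all genes of their length.

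Genes that build or feed the complexes were read from lists of the same pathway. Of 12 assembly factors of Complex I 8 lay above 0 (52.7% of all genes), with a median of 0.36, and 7 were at or over 0.32 (20.8% of all genes). Most are weakly covered, and the only one with a mean of at least 20 units was Ndufaf3, with 16.3 units in TLR4ΔIEC and 24.0 in wild type (-0.53). Assembly factors of Complex II (2 of 2 above 0, median 0.01), Complex III (1 of 3, -0.35), Complex IV (7 of 18, -0.04) and Complex V with its inhibitor (1 of 4, -0.16) had medians nearer to or below 0. Each of these medians except that of Complex V changed sign under at least 1 alternative. Sco2, a copper chaperone of Complex IV, had 16.9 units in TLR4ΔIEC and 40.9 in wild type (-1.23), and Coa5, another of its assembly factors, had 36.0 units in TLR4ΔIEC and 29.2 in wild type (0.29). Uqcc2, an assembly factor of Complex III, was at 50.9 units in TLR4ΔIEC and 98.4 in wild type (-0.94), and Atpif1, the inhibitor of the ATP synthase, at 726 units in TLR4ΔIEC and 889 in wild type (-0.29).

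Enzymes of the tricarboxylic acid cycle, which supplies the electrons, lay above 0 in 12 of 14 cases (52.7% of all genes). Their median was 0.25 (0.18 to 0.35 in the alternatives). Idh2, the NADP-dependent isocitrate dehydrogenase, had 57.4 units in TLR4ΔIEC and 35.9 in wild type (0.66), and Sucla2, a subunit of succinyl-CoA synthetase, 68.6 units in TLR4ΔIEC and 70.9 in wild type (-0.05). Mitochondrial ribosomal proteins, which make the subunits encoded in mitochondria, had 45 of 74 above 0 (60.8%, against 52.7% of all genes). Their median was 0.07, between Mrpl34 (-0.79) and Mrpl50 (0.59). Protein import genes had 10 of 19 above 0 and a median of 0.02 (below 0 among genes of the same length, -0.06), from Timm13 (-0.70) to Timm9 (0.61). Genes of mitochondrial DNA maintenance and transcription had 5 of 8 above 0 (median 0.06).

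Regulators and carriers gave no common direction. Of 6 regulators of mitochondrial biogenesis 2 lay above 0 (52.7% of all genes). Their median of -0.10 turned above 0 under 4 alternatives. The nuclear receptor Esrra, which acts on genes of this pathway, had 64.7 units in TLR4ΔIEC and 102 in wild type (-0.64), and Ppard, another nuclear receptor, had 16.4 units in TLR4ΔIEC and 26.4 in wild type (-0.65). Of cytochrome c and the carriers of ADP, ATP and phosphate 1 of 4 lay above 0 (median -0.05, above 0 with 3 other scalings). Slc25a4, the ADP/ATP carrier of heart and muscle, had 103 units in TLR4ΔIEC and 168 in wild type (-0.71), and the phosphate carrier Slc25a3 had 238 units in TLR4ΔIEC and 227 in wild type (0.07).

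**Figure D5:**
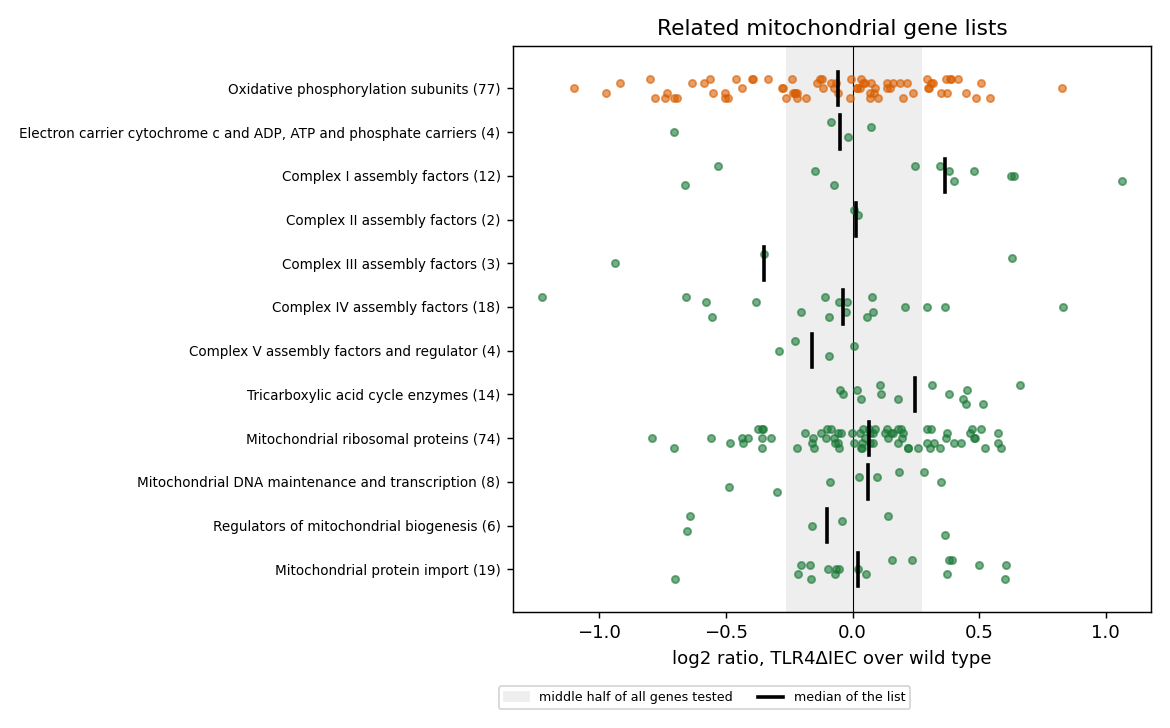
Log2 ratio (TLR4ΔIEC over wild type) of the genes in each related list, 1 point per gene, with the number of genes in parentheses, a black bar at the median and a grey band for the middle 50% of all genes tested. The tricarboxylic acid cycle and Complex I assembly factors centre right of 0, at 0.25 and 0.36, and the medians at -0.04 to -0.06 change side with other scalings.

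Markers of several cell types moved alongside these values. Of 10 enterocyte markers 8 lay below 0 and they summed to 7626 units in TLR4ΔIEC and 17814 in wild type, of which Apoa1 held 3154 units in TLR4ΔIEC and 10533 in wild type, while Vil1, which marks the brush border, was at -0.01. All 6 listed T cell markers lay above 0 (349 units in TLR4ΔIEC and 149 in wild type), as did all 5 plasma cell markers (1007 units in TLR4ΔIEC and 412 in wild type) and all 5 red blood cell markers (435 units in TLR4ΔIEC and 188 in wild type). Also above 0 were all 7 cell division markers (253 units in TLR4ΔIEC and 178 in wild type) and 6 of 7 macrophage markers (1678 units in TLR4ΔIEC and 903 in wild type). The 4 Paneth cell markers summed to 70498 units in TLR4ΔIEC and 65866 in wild type. Of them Mptx2 was at 1.70, while Lyz1 (0.15), Defa24 (0.07) and Itln1 (0.02) differed little. The limit of 5 units was reached by 9 of 10 enterocyte, 5 of 7 macrophage and 4 of 5 red blood cell markers, and by all those of the other types named here. In whole tissue, fewer cells of a type and less RNA per cell cannot be told apart. The part of these shifts in the ratios of the members was not tested.

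Pseudogenes and neighbours limit some of these values. At least 1 annotated copy of 90% identity or more over at least 50% of the transcript exists for 18 members, and 27 share exon bases with another gene. Without the members that have copies, the medians of subunits with a bacterial counterpart (0.22) and of supernumerary subunits (-0.24) were close to those given above.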

How the data were processed

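Total RNA of ileum was extracted from snap-frozen tissue, depleted of ribosomal RNA, fragmented with RNase III and made into barcoded Ion Torrent libraries with strand-specific reverse transcription, per the labels' protocols. Per the submitters' processing notes, which assign no roles, Bowtie2 2.1.0, TopHat2 2.0.10 and mm10 were used. The deposited signal is average coverage per RefSeq entry, 1 column per genotype, per the file headers. How the coverage was computed, from what read length and with what use of strand is not given in the sources used here, so no counting intervals are given. The averages may run over only part of a transcript, in strongly covered members too.

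Entries listed in both columns (22001) were scaled by the median of ratios (factor 1.05) to a mean total of 1000000 units and reduced to 21950 symbols by the entry with the highest mean. Log2 ratios used a pseudocount of 1 unit, which understates ratios of low genes. Genes averaging 5 units or more (coverage 3.58 in TLR4ΔIEC and 3.41 in wild type) were compared. A limma test across mice was to be used if columns per mouse were found; the columns are pooled, so counts past log2 ratios of 0.32, 1.5-fold and 2-fold are given beside those over all genes.

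Transcript lengths, GC content, coordinates and overlaps were those of GENCODE vM21, which is on GRCm38 as mm10 is, where 82 members were found, and near-identical copies from blastn 2.17.0. A trend of the ratio on GC content and log10 length, fitted over all genes, was removed as an alternative. A length common to both averages was recovered for 69 of the 77 members. It was not recovered for Ndufa5, Ndufa9, Ndufa11, Ndufs7, Ndufs8, Cox7a2l, Atp5f1 and Atp5g2.

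Individual values are given for core subunits, the most strongly covered member of each complex, the 3 highest and 3 lowest ratios per complex, tissue forms, members past 1.5-fold, members under the limit, and the extremes of each related list above 20 units; other members named were chosen after their values were seen. The values of 1 member of Complex I are not reported here. Members and lists were chosen with earlier results of these data known. Alternatives were 4 other scalings, 2 pseudocounts, 3 filters, the mean over entries, the trend removed, genes of the same length behind both averages and 2 regroupings of members. The steps were tested on simulated data. Python 3.11.15 was used with numpy 2.4.6, pandas 2.3.3 and matplotlib 3.10.9.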

Additional observations from a re-analysis of the deposited data

How the results depend on the processing

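The 2 groups by origin kept the sign of their medians under all 15 alternatives run on them, and Complexes I and II under all 16 and 15. Scaled to totals that leave out the 50 highest genes, medians were 0.0456 for all members, -0.0237 for Complex I, 0.32 for Complex II, 0.14 for Complex III, -0.0231 for Complex IV, 0.11 for Complex V, 0.29 for subunits with a bacterial counterpart, -0.12 for supernumerary subunits, 0.0529 for carriers, 0.35 for the tricarboxylic acid cycle, 0.0532 for regulators and 0.12 for import. Under it 17 members were at or over a log2 ratio of 0.32 and 0 passed 2-fold. The median of all genes was 0.12 under that scaling and 0.03 as reported. With scaling to the total, the regulators were at 0.0227. With quantile normalization, medians were 0.0939 for all members, 0.32 for Complex II, 0.14 for Complex V, 0.31 for bacterial counterparts, -0.10 for supernumerary subunits, 0.11 for carriers and 0.14 for import, with 18 members at or over a log2 ratio of 0.32 and 0 past 2-fold.

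After the trend on GC content and length was taken out, medians were 0.0456 for all members, 0.0529 for Complex IV, 0.31 for bacterial counterparts, -0.10 for supernumerary subunits, 0.25 for Complex I assembly, -0.20 for regulators and -0.46 for Tlr4, with 19 members at or over a log2 ratio of 0.32. With recovered lengths in that trend, Complex IV was at 0.0315, bacterial counterparts at 0.29, carriers at -0.16, Complex I assembly at 0.21, Complex III assembly at -0.50, regulators at -0.21 and Tlr4 at -0.47, with 0 members past 2-fold and 163 genes in all at least 2-fold lower.

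At a pseudocount of 0.1, 2 members passed 2-fold. At a pseudocount of 5, 65 genes were at least 2-fold higher and 146 lower, and Complex I assembly was at 0.25, Complex III assembly at -0.22 and Tlr4 at -0.13. With a filter at 1 unit, 206 genes were at least 2-fold higher and 380 lower. Unfiltered, these counts were 222 and 395, and above 20 units they were 58 and 130. With the filter at 1 unit or none, 2 members passed 2-fold, Complex III assembly was at 0.14 and 0.29, and regulators at 0.0040 and 0.0483. With the filter at 20 units, assembly factors of Complexes I, III, IV and V were at -0.53, -0.94, -0.38 and -0.29 and regulators at -0.65, with few genes left in each. Among genes of the same length, 0 members passed 2-fold, since Ndufa5 is not among them, and Complex III assembly was at -0.64. Without members that have near-identical copies, Complex III was at -0.12, and among transcripts of 700 to 1700 bases 7 supernumerary subunits lay above 0, fewer genes being left. Except where stated, the causes were not tested.

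The grouping by origin, the window of 700 to 1700 bases, the removal of genes with copies and the trend on recovered length were chosen after seeing the data. No paired analysis was possible because each genotype is 1 pooled column and the replicate numbers of the genotypes differ, and for the same reason no mouse was left out singly. Depth limits the 5 members under 5 units: Cox8b, Cox4i2, Cox6a2, Ndufa4l2 and Atp5s.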
